A study of Salmo salar with 51 samples.

Results

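Oligonucleotide probes for Foxc1, SIX3 and PCDH18 were followed through the first months of development of whole Atlantic salmon (Salmo salar), and they were chosen by probe position. There were 5 such probes among the 43689 probes of the array, namely C041R114 and C129R059 for Foxc1, C213R032 for SIX3, and C146R003 and C177R125 for PCDH18. The names are those of the study's annotation (forkhead box protein C1, homeobox protein SIX3 and protocadherin-18 precursor). The study had listed all 5 probes as higher at 10 than at 5 days post fertilization (dpf) on these same arrays, under the Gene Ontology term brain development, so the change from 5 to 10 dpf is described here and was not tested.

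Foxc1 is a forkhead transcription factor that is known for its part in the formation of somites, neural crest derivatives and the front of the eye in other vertebrates. SIX3 is a homeobox transcription factor of the anterior neural plate, where it marks the future forebrain and eye and, in the mouse, represses Wnt signalling. PCDH18 is a protocadherin, a membrane protein of the cadherin superfamily through which cells adhere to and sort from one another. The study examined which transcripts changed from one stage of normal development to the next.

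RNA of 1 whole, untreated individual was hybridized to each of 51 arrays, with 3 individuals at each of 17 time points, namely 2, 5, 10, 15, 20, 25, 30, 35, 41, 47, 53, 59, 65, 71, 77, 83 and 89 dpf. All fish came from eggs of the McConnell (Mowi) strain that were raised together in fresh water, and the study placed 2 dpf in blastulation, 5 dpf in gastrulation and 10 dpf in somitogenesis. Each individual carried the dye Cy5, and a Cy3-labelled pool of all time points, to which 2 dpf gave less material, was the common reference on every array, with no dye swap. RNA was scarce at 2, 5 and 10 dpf, and extra extractions and labelling reactions were made for these time points. Levels are given as the background-corrected Cy5 signal and as the log2 ratio of the individual to the pool after loess normalization. A probe was regarded as measured at a time point where at least 1 of its 3 Cy5 signals reached 500, and below that only a bound can be given. Because whole animals were used, fewer cells of a type and less RNA per cell cannot be told apart.

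With 3 individuals per time point and many dim spots, precision was limited. Slides 1 to 6 held 24 arrays with median Cy5 signals of 304.5 to 601, and slides 7 to 14 held 27 arrays with medians of 124.5 to 323.5. All 2 dpf arrays lay on slides 7 to 14 and all 10 dpf arrays on slides 1 to 6, so that no change between them could be taken within a set. Over the probes of a marker list, the median of the mean Cy5 signals at 2, 10, 15 and 89 dpf was 210.3, 511, 980.7 and 22000 for lens crystallins (12 probes) and 165.9, 760.3, 1550 and 4097 for hemoglobin subunits (6 probes), while it was 1291, 2203, 662.5 and 157.6 for zona pellucida proteins of the egg envelope (4 probes). These marker signals were not normalized between arrays, and single probes differed from the medians. At 10, 15 and 89 dpf the highest mean of a hemoglobin probe was 12800, 4151 and 18270, and the lowest was 165.2, 559.7 and 311. A zona pellucida probe was still at 5092 at 89 dpf. None of the 5 probes was flagged on any array, and in the common pool their Cy3 signals varied by 17.4 to 23.9% (CV, n = 51 arrays). The salmon genome is duplicated, and which gene copy each probe reads was not determined here.

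**Figure D1:**
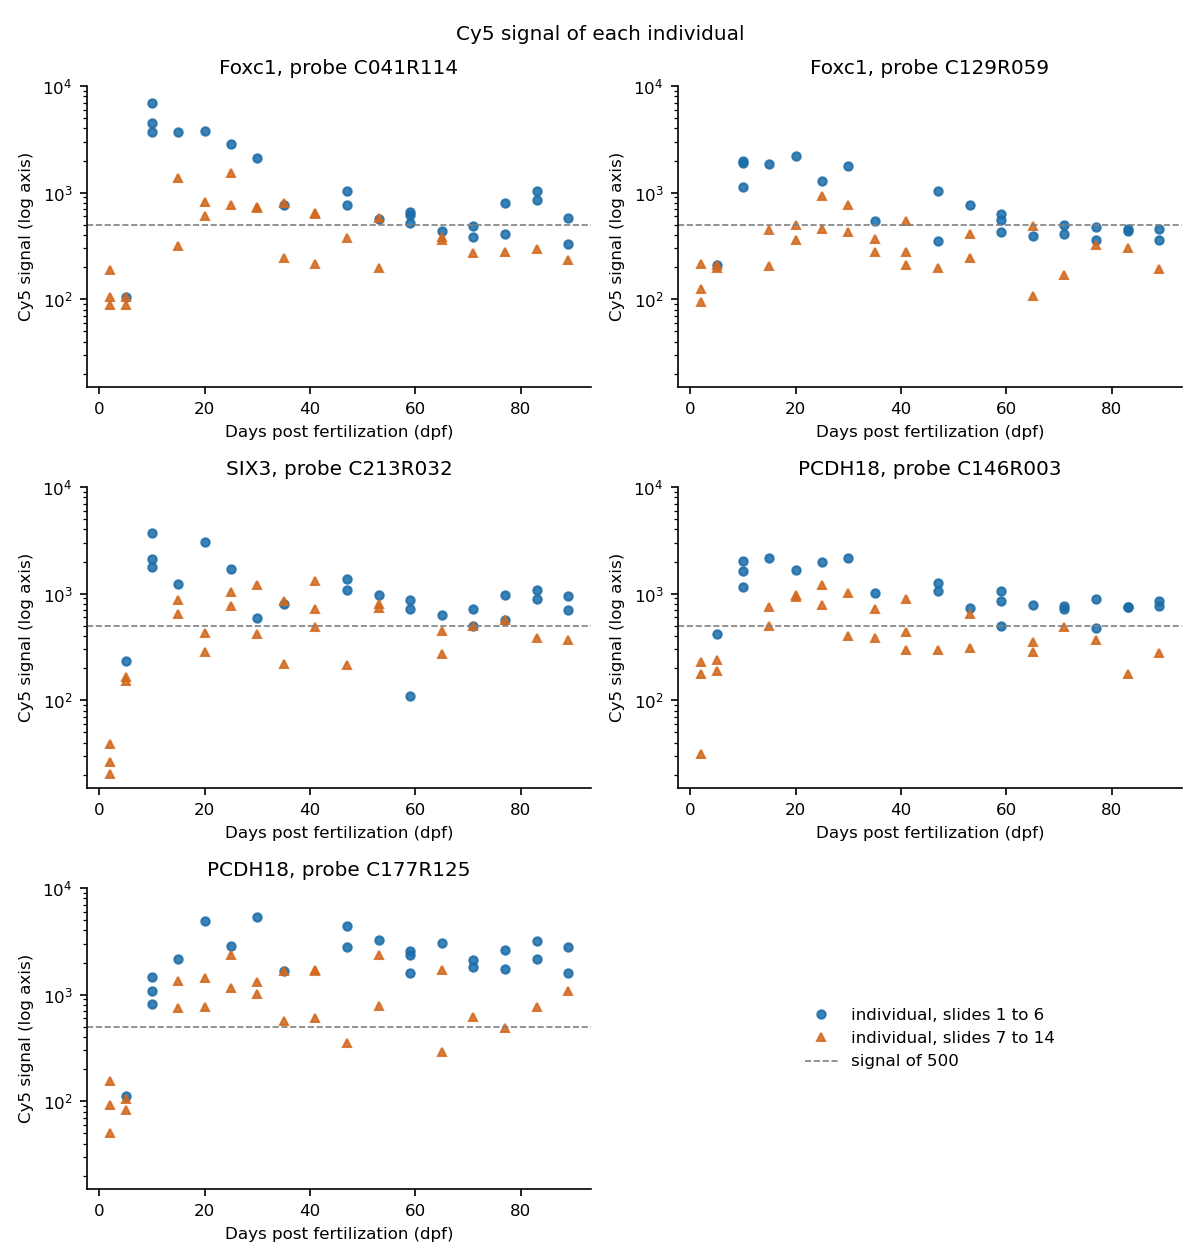
Cy5 signal (log axis) of each individual against days post fertilization for the 5 probes, with 1 point per array, coloured by slide set, and a dashed line at 500. All signals at 2 and 5 dpf lie below 500 and all signals at 10 dpf lie above it.

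In Cy5 signal, all 5 probes were below 500 at 2 and 5 dpf and above it at 10 dpf. Foxc1 probe C041R114 had Cy5 signals of 105.5, 188 and 88 at 2 dpf, of 104, 104.5 and 89 at 5 dpf, and of 4466, 3668 and 6903 at 10 dpf. The 10 dpf individuals were therefore far above all earlier ones with no overlap. The 2 and 5 dpf individuals were alike in raw Cy5, but the median Cy5 signals of these arrays were 124.5 to 203 at 2 dpf and 262 to 382.5 at 5 dpf. The arrays of 10 dpf had medians of 348 to 544. In log2 ratio this probe was at -2.06, -1.25 and -1.98 at 2 dpf, above its 5 dpf values. Its log2 ratios were -3.64, -3.02 and -3.04 at 5 dpf and 0.99, 1.14 and 1.33 at 10 dpf, a difference of 4.39 (SE 0.35, 95% confidence interval 3.68 to 5.10). Since no individual reached 500 at 5 dpf, a bound on the fold was taken, at 5.23-fold higher at 10 dpf. Bounds of this kind set the mean normalized Cy5 level of the bright time point against the lowest normalized level of any spot at 500 or more on each dim array. A signal of 500 in the probe itself could lie above that level. The bounds are therefore not strict, and a smaller fold is possible. They are also open to dye bias because the dyes were not swapped.

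The second Foxc1 probe, C129R059, was likewise higher at 10 dpf. It had Cy5 signals of 211.5, 195 and 211.5 at 5 dpf and of 1970, 1138 and 1911 at 10 dpf. The log2 ratios of -1.82, -0.94 and -1.49 at 5 dpf and of 0.15, 1.14 and 0.35 at 10 dpf did not overlap and differed by 1.96 (SE 0.40, 95% confidence interval 1.15 to 2.77). The bound on the fold was 2.01, higher at 10 dpf.

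SIX3 probe C213R032 had Cy5 signals of 20.5, 39 and 26.5 at 2 dpf. At 5 dpf its signals were 231, 153 and 166, and at 10 dpf they were 3742, 1765 and 2091. These 3 time points stood in steps without overlap, with log2 ratios of -4.26, -4.10 and -3.94, then -2.48, -1.61 and -1.97, then 0.47, 0.35 and -0.37. From 5 to 10 dpf the log2 ratio differed by 2.16 (SE 0.52, 95% confidence interval 1.12 to 3.21), with a bound on the fold of 2.72.

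The 2 PCDH18 probes were also higher at 10 than at 5 dpf. PCDH18 probe C146R003 had Cy5 signals of 419, 189.5 and 237 at 5 dpf and of 2014, 1145 and 1647 at 10 dpf. Its log2 ratios were -1.25, -1.54 and -1.38 at 5 dpf and 0.47, 0.15 and 0.05 at 10 dpf, a difference of 1.62 (SE 0.45, 95% confidence interval 0.71 to 2.52) with a bound on the fold of 1.89. No 5 dpf individual reached the lowest of 10 dpf. For PCDH18 probe C177R125 the Cy5 signals were 111.5, 105.5 and 83 at 5 dpf and 1466, 823 and 1092 at 10 dpf. The log2 ratios of this probe were still low at 10 dpf, at -1.82, -1.67 and -2.30 after -4.40, -3.78 and -4.19 at 5 dpf, and differed by 2.20 (SE 0.34, 95% confidence interval 1.52 to 2.88), with a bound on the fold of 1.25.

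All 5 probes were thus higher at 10 than at 5 dpf, the direction they had been listed for, with no overlap between the individuals of the 2 time points. Of all probes, 11.9% of 20686 were called higher in this comparison and 24.0% of the 19943 with unflagged values were higher without overlap. A call here and below means an adjusted p under 0.05 over all probes (limma, Benjamini-Hochberg) with a fold change of at least 2. No slide held both time points. Of the 3 arrays of 5 dpf, 1 lay within slides 1 to 6, the set that held all 10 dpf arrays, and against this array alone the differences were 4.80 and 2.36 for the Foxc1 probes C041R114 and C129R059, 2.62 for SIX3, and 1.48 and 2.47 for the PCDH18 probes C146R003 and C177R125. With each slide as a fixed block, the differences were smaller for SIX3 (1.48), PCDH18 C146R003 (1.07) and PCDH18 C177R125 (1.57).

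**Figure D2:**
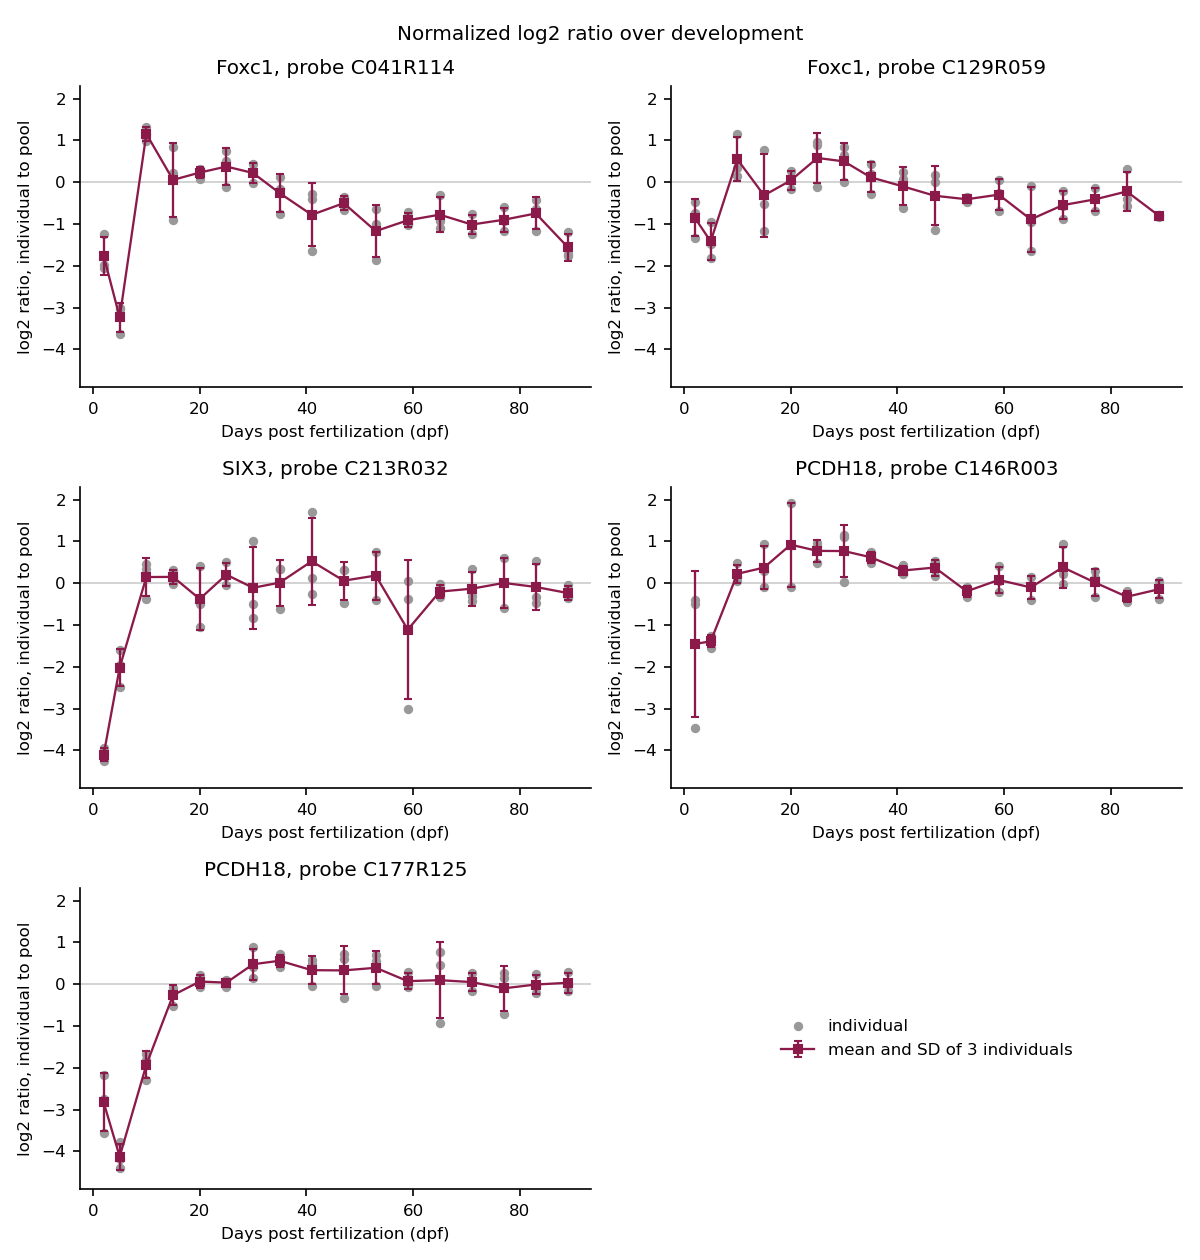
Normalized log2 ratio of individual to pool against days post fertilization for the 5 probes, with a point per individual and the mean and SD of 3 individuals at each time point. Foxc1 C041R114 peaks at 10 dpf at 1.15 and then declines, whereas PCDH18 C177R125 is at -1.93 at 10 dpf and reaches its plateau only from 15 dpf on.

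Between 2 and 5 dpf the SIX3 probe was called higher and Foxc1 C041R114 and PCDH18 C177R125 were called lower, which makes 3 of 5 probes against 39.8% of the 20911 probes compared. The log2 change was 2.08 for SIX3 (SE 0.52, adjusted p = 0.00101), -1.47 for Foxc1 C041R114 (SE 0.35, adjusted p = 0.000673) and -1.30 for PCDH18 C177R125 (SE 0.34, adjusted p = 0.00156). The study had listed SIX3 for this comparison as well, so the SIX3 value is not independent evidence of the direction, and since that list was at hand only in part, the other probes may have been on it too. The comparison uses the 5 dpf arrays on which the probes had been listed as low. The choice of the probes therefore partly fixes a fall, and nothing is read from the 2 lower calls or from the count. All 5 probes were below 500 on all 6 arrays of these 2 time points, so no fold is given. On the only slide that held both, with 1 array of 2 dpf and 2 of 5 dpf, the change was 2.16 for SIX3, -1.05 for Foxc1 C041R114 and -0.43 for PCDH18 C177R125. The SIX3 call was lost when 50 was added to both signals (0.84, adjusted p = 0.131), and the PCDH18 C177R125 call was lost on the Cy5 channel alone (-0.84, adjusted p = 0.0814), with median centring (adjusted p = 0.0734) and without replicate 2 of all time points (-1.14, adjusted p = 0.0561). It was also lost, at a fold under 2, with the slides as a fixed block (-0.97, adjusted p = 0.0288). The same held without replicate 2 of 2 dpf (-0.97, adjusted p = 0.0275). The methods' t-test called neither PCDH18 C177R125 (adjusted p = 0.154) nor Foxc1 C041R114 (adjusted p = 0.0607). The other probes were not called, at -0.57 (95% confidence interval -1.38 to 0.24) for Foxc1 C129R059 and 0.06 (-0.84 to 0.97) for PCDH18 C146R003. For the latter, the 2 dpf individuals had log2 ratios of -0.40, -0.50 and -3.46, and the third of them, with a Cy5 signal of 31, was far below the other two.

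Over the whole step from 2 to 10 dpf, 4 of 5 probes were called higher, against 51.1% of 20695 probes called in either direction and 26.7% called higher. The comparison shares the 10 dpf arrays, on which the probes had been listed as high, with the one they were listed for. The choice of the probes therefore partly fixes a rise for all 5, and nothing is read from the count. The adjusted p values of this comparison carry the same limit. Foxc1 C129R059 also passed the signal filter only through its 10 dpf arrays, so its rise is partly fixed by the filter. SIX3 changed by 4.25 (SE 0.52, adjusted p = 4.56e-09). Foxc1 C041R114 rose by 2.92 (SE 0.35, adjusted p = 3.72e-09) and Foxc1 C129R059 by 1.39 (SE 0.40, adjusted p = 0.00293, not called without replicate 2 of all time points at 1.15, adjusted p = 0.0669). PCDH18 C146R003 rose by 1.68 (SE 0.45, adjusted p = 0.00152), a call that was lost without replicate 3 of 2 dpf (0.67, adjusted p = 0.110). PCDH18 C177R125 stayed under a fold of 2, at 0.90 (SE 0.34, adjusted p = 0.0204), but was called without replicate 2 of 2 dpf (1.23, adjusted p = 0.00418) or replicate 3 of 10 dpf (1.09, adjusted p = 0.0143), with median centring (1.61, adjusted p = 0.0022) and on the Cy5 channel alone (1.73, adjusted p = 0.000313), which makes 5 of 5 in these alternatives. The 2 dpf log2 ratios of PCDH18 C177R125, at -2.75, -2.18 and -3.55, overlapped those of 10 dpf, the lowest of which was -2.30. The bounds on the fold were 2.27 for Foxc1 C041R114 and 1.18 for SIX3, both higher at 10 dpf, and no bound over 1 could be given for the other 3 probes. With the 2 slide sets as a block in the fit, which was chosen after seeing the data, 4 probes were called, at 2.76 and 1.35 for the Foxc1 probes C041R114 and C129R059 (adjusted p = 9.15e-08 and 0.00839), 4.26 for SIX3 (4.68e-08) and 1.69 for PCDH18 C146R003 (0.00363), and PCDH18 C177R125 was at 0.60 (0.14). Since 2 and 10 dpf shared no slide set, the block was estimated from other time points. It therefore cannot show the change within a set.

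After 10 dpf the probes changed in different directions. From 10 to 15 dpf, 2 of 5 probes were called, against 11.9% of 20690 probes. PCDH18 C177R125 rose from -1.93 ± 0.33 to -0.26 ± 0.24 (SD, n = 3), and no 15 dpf individual, at -0.08, -0.18 and -0.53, fell to the level of 10 dpf. The change of this probe was 1.66 (SE 0.34, adjusted p = 0.00046), a 3.17-fold rise, for which the study had listed it as well. The call was lost with median centring (1.24, adjusted p = 0.0559) and on the Cy5 channel alone (1.02, adjusted p = 0.0983). No slide held both time points, and against the 1 array of 15 dpf within slides 1 to 6 the change was 1.39.

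Foxc1 C041R114 moved the other way in this step. Its individuals at 15 dpf had log2 ratios of -0.90, 0.21 and 0.85 and Cy5 signals of 317.5, 1376 and 3694, all below the 10 dpf range in log2 ratio but widely spread. The change was -1.10 (SE 0.35, adjusted p = 0.0305), a 2.14-fold fall. It was not called without replicate 1 of 15 dpf (-0.62, adjusted p = 0.377), without any 1 of the 10 dpf arrays (adjusted p = 0.0571 to 0.108), on the Cy5 channel alone (-0.99, adjusted p = 0.0980) or with the slides as a fixed block (-0.99, adjusted p = 0.119). The change on slides 1 to 6 was -0.30.

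The remaining probes were not called from 10 to 15 dpf. The change was -0.86 (95% confidence interval -1.67 to -0.05, adjusted p = 0.147) for Foxc1 C129R059, which was called without replicate 3 of 15 dpf (-1.40, adjusted p = 0.0146), 0.00 (-1.04 to 1.05) for SIX3 and 0.15 (-0.76 to 1.05) for PCDH18 C146R003. These intervals include changes of a fold of 2, so a moderate change was not detectable with 3 individuals. Replicate 3 was the only 15 dpf array within slides 1 to 6, the set that held all 10 dpf arrays. Within that set the changes were 0.22 for Foxc1 C129R059, -0.16 for SIX3 and 0.71 for PCDH18 C146R003.

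**Figure D3:**
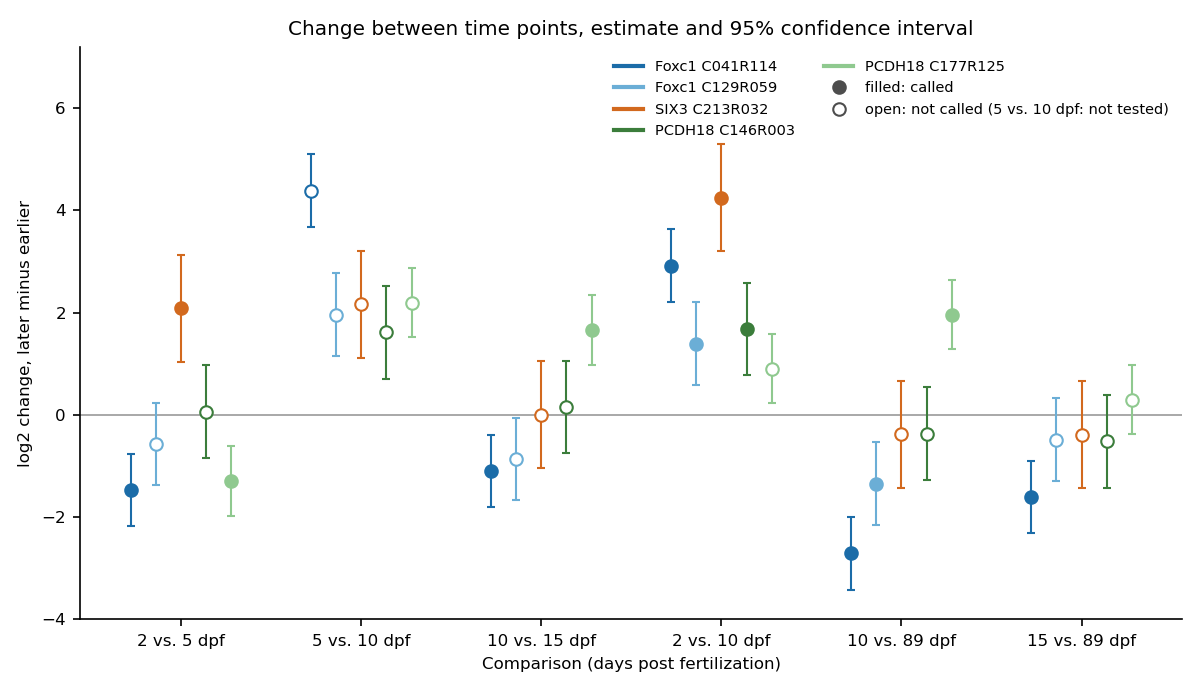
Log2 change (later minus earlier time point) of the 5 probes in 6 comparisons, with 95% confidence intervals from the limma fit. Filled points were called, open points were not called, and the changes from 5 to 10 dpf, between 1.62 and 4.39, were not tested.

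From 15 dpf on, no probe was called in any of the 13 comparisons of consecutive time points (limma), in which 0 to 1.43% of all probes were called (0.366% over the 13 comparisons). Of these 65 changes, 2 had an unadjusted p under 0.05, SIX3 from 53 to 59 dpf (-1.29, adjusted p = 1) and Foxc1 C041R114 from 83 to 89 dpf (-0.81, adjusted p = 0.439), and the methods' t-test called 0. The SIX3 value rested on 1 individual of 59 dpf, with a log2 ratio of -3.01 and a Cy5 signal of 110.5 against 0.06 and -0.38 with signals of 874.5 and 717 in the other two.

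Over the longer course, Foxc1 C041R114 declined. Its mean log2 ratio was highest at 10 dpf, at 1.15 ± 0.17 (SD, n = 3), and was 0.05 ± 0.89, 0.23 ± 0.13, 0.37 ± 0.45, 0.22 ± 0.23 and -0.26 ± 0.45 at 15, 20, 25, 30 and 35 dpf. After hatching it was -0.78 ± 0.75, -0.50 ± 0.16, -1.17 ± 0.62, -0.91 ± 0.16 and -0.78 ± 0.42 at 41, 47, 53, 59 and 65 dpf, and then -1.01 ± 0.24, -0.90 ± 0.29, -0.75 ± 0.38 and -1.55 ± 0.32 at 71, 77, 83 and 89 dpf. Only 2 dpf, at -1.76 ± 0.45, and 5 dpf, at -3.23 ± 0.35, were lower than 89 dpf. When the 17 time points were ordered by their mean, 14 of the 16 neighbouring pairs overlapped, and the gaps lay below 10 dpf and between 2 and 5 dpf.

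The slope of this Foxc1 probe and its change from 15 to 89 dpf rest on arrays other than those of 5 and 10 dpf, on which it had been listed. From 15 to 89 dpf its slope was -0.21 log2 units per 10 days (SE 0.03, adjusted p = 4.1e-08), and within the slide sets it was -0.24 on slides 1 to 6 and -0.21 on slides 7 to 14. Its signals reached 500 on 9 of the 21 arrays from 53 dpf on, and on none at 65 and 71 dpf. At 89 dpf the individuals had log2 ratios of -1.71, -1.76 and -1.19 and Cy5 signals of 234.5, 333 and 574.5, below all individuals of 10 and 15 dpf in log2 ratio. The change was -1.61 from 15 to 89 dpf (SE 0.35, adjusted p = 0.000321, 3.05-fold lower). Within slides 1 to 6 it was -2.33, within slides 7 to 14 it was -1.37 with 2 arrays against 1, and on slide 6, the only slide with both time points, it was -2.04 with 1 array of each. From 10 to 89 dpf, a comparison that uses the 10 dpf arrays on which the probe had been listed as high, the change was -2.71 (SE 0.35, adjusted p = 2.34e-08, 6.54-fold lower) and -2.63 within slides 1 to 6.

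The other Foxc1 probe, C129R059, followed a flatter course. Its mean was 0.55 ± 0.53 at 10 dpf and -0.32 ± 0.99, 0.04 ± 0.22, 0.58 ± 0.60, 0.50 ± 0.44 and 0.12 ± 0.36 from 15 to 35 dpf (SD, n = 3). From 41 to 65 dpf it was -0.10 ± 0.45, -0.32 ± 0.71, -0.41 ± 0.07, -0.30 ± 0.37 and -0.89 ± 0.78, and from 71 to 89 dpf -0.55 ± 0.33, -0.41 ± 0.27, -0.22 ± 0.47 and -0.80 ± 0.03. The means at 2 and 5 dpf were -0.85 ± 0.45 and -1.42 ± 0.44. All 16 neighbouring pairs overlapped in the order of this probe, and 16 of its 51 Cy5 signals reached 500. From 53 dpf on 3 of 21 signals reached 500, and at 65, 71, 77, 83 and 89 dpf none did. The late end of its slope therefore rests on levels below those regarded as measured. Its slope was -0.12 per 10 days (SE 0.03, adjusted p = 0.0016), with -0.20 on slides 1 to 6 and -0.06 on slides 7 to 14, and the slope was not called without replicate 3 (-0.07, adjusted p = 0.173). From 10 to 89 dpf the change was -1.35 (SE 0.40, adjusted p = 0.00459), with a bound on the fold of 1.66 for the fall, and it was not called without replicate 2 (-1.03, adjusted p = 0.111). Only at 10 dpf did all 3 signals of this probe reach 500, so it passed the signal filter through that time point alone. A fall from 10 dpf is therefore partly fixed by the filter.

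For SIX3 no slope was called from 15 dpf on. Its mean log2 ratio was -4.10 ± 0.16 at 2 dpf, -2.02 ± 0.44 at 5 dpf, 0.15 ± 0.46 at 10 dpf, 0.15 ± 0.16 at 15 dpf and -0.38 ± 0.73 at 20 dpf (SD, n = 3). From 25 to 47 dpf the means were 0.20 ± 0.28, -0.11 ± 0.97, 0.01 ± 0.55, 0.52 ± 1.04 and 0.06 ± 0.46. From 53 to 89 dpf they were 0.18 ± 0.57, -1.11 ± 1.66, -0.20 ± 0.16, -0.13 ± 0.41, 0.01 ± 0.59, -0.09 ± 0.54 and -0.24 ± 0.16. The spread between individuals was wide, with 1 individual of 41 dpf at 1.71 and the one of 59 dpf at -3.01, and the only gap in the order lay between 5 and 2 dpf. The slope from 15 dpf on was -0.04 per 10 days (95% confidence interval -0.12 to 0.05, adjusted p = 0.457), and the change from 10 to 89 dpf was -0.38 (-1.43 to 0.66, adjusted p = 0.555).

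PCDH18 C146R003 had its highest means from 20 to 35 dpf, but the F test from 15 dpf on did not call it (adjusted p = 0.206). The means of this probe were -1.45 ± 1.74, -1.39 ± 0.14, 0.22 ± 0.22 and 0.37 ± 0.52 at 2, 5, 10 and 15 dpf and 0.92 ± 1.00, 0.77 ± 0.26, 0.77 ± 0.63 and 0.62 ± 0.13 at 20, 25, 30 and 35 dpf (SD, n = 3). From 41 to 65 dpf they were 0.30 ± 0.12, 0.37 ± 0.19, -0.19 ± 0.13, 0.08 ± 0.32 and -0.10 ± 0.28, and from 71 to 89 dpf 0.38 ± 0.49, 0.02 ± 0.32, -0.32 ± 0.13 and -0.15 ± 0.21. In the order of the time points the only gap lay between 83 and 5 dpf. The individuals of 2 dpf, last in the order, reached up to -0.40, within the 83 dpf range of -0.45 to -0.19. The slope was -0.13 per 10 days (SE 0.04, adjusted p = 0.00182), with -0.12 on slides 1 to 6 and -0.15 on slides 7 to 14, and it was not called without replicate 2 (-0.12, adjusted p = 0.0567). The change from 10 to 89 dpf was -0.37 (95% confidence interval -1.28 to 0.54, adjusted p = 0.507).

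PCDH18 C177R125 was close to the pool from 15 dpf on, and no slope was called. The means were -2.83 ± 0.69, -4.12 ± 0.31, -1.93 ± 0.33 and -0.26 ± 0.24 at 2, 5, 10 and 15 dpf, and 0.06 ± 0.16, 0.04 ± 0.09, 0.48 ± 0.38 and 0.56 ± 0.15 from 20 to 35 dpf (SD, n = 3). From 41 to 65 dpf they were 0.34 ± 0.34, 0.33 ± 0.58, 0.39 ± 0.39, 0.07 ± 0.20 and 0.10 ± 0.90, and from 71 to 89 dpf 0.05 ± 0.22, -0.10 ± 0.54, -0.01 ± 0.23 and 0.03 ± 0.24. In the order of its time points there were 2 gaps, one below 15 dpf and one between 2 and 5 dpf. It was at 500 or more in Cy5 on 39 of the 42 arrays from 15 dpf on. The change from 10 to 89 dpf was 1.96 (SE 0.34, adjusted p = 5.13e-06), 3.89-fold higher, while its slope from 15 dpf on was -0.02 per 10 days (95% confidence interval -0.07 to 0.04, adjusted p = 0.569).

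Counted over the 5 probes, 3 were called between 10 and 89 dpf, 2 lower and 1 higher, against 43.7% of 20661 probes. The comparisons of 10 with 15 and with 89 dpf share the 10 dpf arrays on which the probes had been listed as high, so the choice of the probes partly fixes a fall, and nothing is read from these counts. From 15 to 89 dpf 1 was called, against 31.5% of 20868 probes, and a negative slope from 15 dpf on was called for 3, against 59.8% of 20733 probes called in either direction and 34.2% called lower. None was called from 41 dpf, the first time point after hatching, to 89 dpf (limma, with 7.72% of all probes called), where 1 change had an unadjusted p under 0.05, the methods' t-test called 0 and the 5 changes lay between -0.77 and -0.30. Without replicate 1 of 41 dpf, Foxc1 C041R114 was called lower in that comparison (-1.21, adjusted p = 0.0442). Across the 17 time points the F test called 5 of 5, against 87.1% of 20555 probes, on arrays that include those of 5 and 10 dpf, and without replicate 3 Foxc1 C129R059 was not called (adjusted p = 0.0563). Over the 14 time points from 15 dpf on, the F test called 1, Foxc1 C041R114 (adjusted p = 6.32e-05), against 47.1% of 20733 probes, and it did not call it without replicate 2 (adjusted p = 0.0666).

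The 2 probes of a gene were compared through the difference of their log2 ratios on each array. For Foxc1 (C041R114 minus C129R059) this difference was -0.91 ± 0.59 at 2 dpf, -1.82 ± 0.26 at 5 dpf, 0.61 ± 0.53 at 10 dpf and -0.75 ± 0.30 at 89 dpf (SD, n = 3). For PCDH18 (C146R003 minus C177R125) it was 1.38 ± 1.16, 2.73 ± 0.46, 2.15 ± 0.29 and -0.18 ± 0.25 at the same time points. Both differences varied over the 17 time points in a permutation test of the F statistic (adjusted over the 2 pairs, p = 0.00303 for Foxc1 and p = 0.00016 for PCDH18). Both comparisons rested on the early time points. With 2 and 5 dpf left out, where all 4 probes were below 500, the p was 0.128 for Foxc1 and 0.00644 for PCDH18. With 5 and 10 dpf left out, the time points for which the probes had been listed, it was 0.279 and 0.210. The Foxc1 call was also lost without replicate 3 (permutation p = 0.119).

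**Figure D4:**
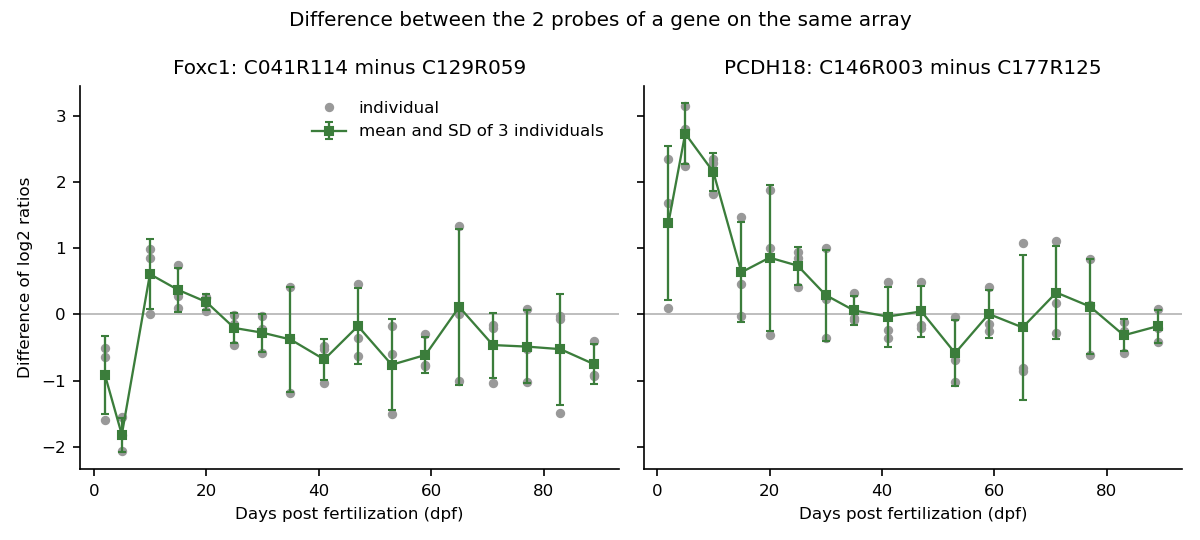
Difference of the log2 ratios of the 2 probes of Foxc1 and of PCDH18 on the same array against days post fertilization, with a point per individual and the mean and SD of 3 individuals. The Foxc1 difference turns from -1.82 at 5 dpf to 0.61 at 10 dpf, and the PCDH18 difference falls from 2.73 at 5 dpf to 0.06 at 35 dpf.

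Across the 17 time point means, which share the arrays and the pool, Pearson's r was 0.90 between the Foxc1 probes and 0.78 between the PCDH18 probes. PCDH18 C146R003 had an r of 0.81 with Foxc1 C041R114, and over the 14 means from 15 dpf on this was 0.83, while r between the PCDH18 probes fell to 0.24 there. The 3 named probes most like each were found among those unflagged on all arrays. Foxc1 C041R114 was most like creb3l3a, a transcription factor of the CREB family (r = 0.92), sult1st2, a cytosolic sulfotransferase (r = 0.92), and DTYMK, the thymidylate kinase of dTTP synthesis (r = 0.91), all of them highest at 10 dpf and lowest at 5 dpf. Foxc1 C129R059 was most like fam139a, Pfn2, an actin-binding profilin, and BCAP31, a protein of the endoplasmic reticulum (r = 0.87 to 0.88).

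For SIX3 the nearest probes were rpl23, a ribosomal protein, FRAP1, the kinase of the rapamycin-sensitive growth pathway, and Mfap2, a protein of elastic microfibrils (r = 0.94 to 0.96). Rank correlations were lower, at 0.52 with rpl23, 0.64 with FRAP1 and 0.56 with Mfap2. PCDH18 C146R003 was nearest to LCP2, annotated as a digestive cysteine proteinase, APOB, the lipoprotein apolipoprotein B-100, and SLC27A2, a very long-chain acyl-CoA synthetase (r = 0.94 to 0.98). PCDH18 C177R125 was nearest to ARVCF, a catenin that binds cadherins, fabp3, the fatty acid-binding protein of heart, and COQ4, of ubiquinone synthesis (r = 0.98 to 0.99). Rank correlations were 0.87 with ARVCF, 0.84 with fabp3 and 0.51 with COQ4, which was highest at 89 dpf.

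Other genes of the same families and processes were described from lists by gene symbol. Only 4109 of the 43689 probes have a symbol here, and these symbols come from the study's lists of probes that changed on the same arrays. The counts and the adjusted p values below are therefore partly fixed by that choice and are not independent evidence of change. The p values are given as descriptions only. The table behind the names for 2 against 5 dpf was at hand only in part, so the lists may lack members. Beside the counts from 5 to 10 dpf stand the 11.9% of all probes that were called higher in that comparison. There 1752 of 20686 probes were called lower. Shares over all probes cover mostly probes outside the study's lists, so they are not a like background for these counts. Of the 8 other forkhead probes tested, 2 rose from 5 to 10 dpf, foxd3, an early neural crest factor (3.21, adjusted p = 5.35e-05), and FOXP4 (1.20, adjusted p = 0.000889). From 2 to 5 dpf foxa2, a regulator of endoderm and floor plate, rose from Cy5 signals of 46 to 128.5 to 3643 to 9508 (probe C172R152, adjusted p = 1.03e-12). It was the only one of the 8 called higher in that step. Called lower were foxe1 (-2.13, adjusted p = 0.00118, under 500 at both time points) and FOXJ3 (-1.72, adjusted p = 3.84e-05). Over all probes 39.8% were called in either direction. The foxa2 probe C172R152 fell by 1.43 from 10 to 15 dpf (adjusted p = 0.00348). A second foxa2 probe also fell in that step (-2.03, adjusted p = 0.00182), while FOXP4 rose (2.35, adjusted p = 2.52e-08). In that step 11.9% of all probes were called in either direction. The median change of the 8 probes from 5 to 10 dpf was 0.57, against -0.02 for all probes.

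Of the 18 probes tested for other eye and forebrain regulators, 11 rose and 1 fell from 5 to 10 dpf, against 11.9% of all probes called higher, with a median change of 1.47. Among them were PAX6, a regulator of eye formation, whose probe C160R089 went from Cy5 signals of 225.5 to 321.5 to signals of 6159 to 13627 (adjusted p = 1.25e-10), dlx5a, a homeobox factor of forebrain and branchial arches (adjusted p = 1.76e-09), and Irx3, a patterning factor of the neural tube (adjusted p = 1.09e-06). The forebrain and midbrain factor otx2 was called higher from 2 to 5 dpf, with signals of 94 to 199.5 and then 3516 to 10878 (adjusted p = 1.96e-11). SIX3 was called higher in that step as well, and signals of different probes cannot be set against each other. From 2 to 5 dpf 2 of these 18 probes were called higher and 6 lower, with a median change of -0.63. Among the lower were sox3 (-2.42, adjusted p = 2.29e-11) and dlx2a (-2.21, adjusted p = 0.000134). Over all probes 39.8% were called in either direction. In the slope from 15 to 89 dpf, 10 of these 18 probes were called lower and 3 higher, against 34.2% of all probes called lower and 59.8% called in either direction.

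Of the 5 other cadherin probes tested, 3 rose from 5 to 10 dpf and none fell, with a median change of 1.39. They were cdh2, the cadherin of neural tissue (2.32, adjusted p = 0.000143), DSC1, a desmosomal cadherin (1.68, adjusted p = 1.94e-06), and a CDH17 probe for the cadherin of liver and intestine (C120R087, 1.39, adjusted p = 0.0168). From 10 to 15 dpf 2 further CDH17 probes rose, C100R072 by 2.15 (adjusted p = 0.00292) and C162R131 by 2.13 (adjusted p = 3.1e-05). Over all 20690 probes compared in that step, 1926 were called higher and 546 lower.

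Of the 6 probes for Wnt inhibitors, 2 rose from 5 to 10 dpf and none fell. SFRP1, a secreted inhibitor, changed by 2.00 (adjusted p = 0.000481) and an axin2 probe (C242R149), a feedback inhibitor within the cell, by 1.81 (adjusted p = 0.0116). SFRP5 had risen earlier, from Cy5 signals of 10.5 to 187 at 2 dpf to 4179 to 11507 at 5 dpf, and it fell by 3.40 from 10 to 15 dpf (adjusted p = 0.000474). From 2 to 5 dpf, 2 of the 6 probes were called higher and 1 lower, against 39.8% of all probes called in either direction. The lower one was another axin2 probe (C186R158, -1.54, adjusted p = 0.0192).

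The annotation brain development, which all 5 probes carry, was held by 14 other probes tested. Of these, 6 rose and 4 fell from 5 to 10 dpf, with a median change of 0.62. Over all 20686 probes compared in that step, 2454 were called higher and 1752 lower. The largest change was that of pou5f1, a pluripotency factor of the early embryo, which fell by 3.40 (adjusted p = 2.68e-06). BPTF came next and fell by 1.81 (adjusted p = 1.77e-05). Both probes for PPT1, a lysosomal thioesterase, rose (C086R120 by 1.77, adjusted p = 1.17e-06, and C140R139 by 1.61, adjusted p = 1.73e-05).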

How the data were processed

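RNA of 51 whole Atlantic salmon was measured on 2-colour arrays. The authors quantified the scanned spots with ImaGene 8.0 and deposited background-corrected median signal intensity values of both channels on a linear scale, with a spot flag that is treated here as a score. How the background was estimated is not given in the sources used here, so no other background correction was run. The authors also deposited Lowess-normalized log2 values from GeneSpring GX 11.0, with probe medians at 0. These correlated at 0.991 to 1 with the probe-centred log2 ratios of the same arrays, which settles their direction. As an example of their scale, Foxc1 C041R114 was at -2.92 and 1.74 in replicate 1 of 5 and 10 dpf in the deposited values. Here the same arrays gave -3.64 and 0.99, a step of nearly the same size, which goes with a log2 scale of the deposited values.

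Signals below 1 were raised to 1, and log2 ratios of Cy5 to Cy3 were loess-normalized within arrays (limma 3.58.1, R 4.3.3), without control spots and with flagged spots (2.35% of probe spots) at a weight of 0. The normalized Cy5 levels used for the bounds were taken after Aquantile scaling between arrays. Probes were kept where an unflagged Cy5 signal reached 500 on all 3 arrays of a time point, which left 20964. A single limma fit (lmFit, eBayes) of all 51 arrays, grouped by the labels, gave 20 comparisons of time points, the slope from 15 to 89 dpf and the F tests, with Benjamini-Hochberg adjustment over all tested probes and, between time points, a fold of at least 2. Replicates are separate individuals per the study's methods, while the labels give only replicate numbers, and arrays have no sequencing depth. Probe pairs were compared with 100000 permutations of the arrays in Python 3.11.15 (numpy 2.4.6). The fit was tested on simulated data.

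The 5 probes, the gene lists and the tests were chosen with earlier results of these data known. Besides the 5 probes, the named ones are, for each of them, the 3 unflagged probes with a symbol and the highest Pearson's r, and, from each list, called probes among the 4 of largest change in a comparison. Names and Gene Ontology terms were taken from the study's additional tables, whose values were not used. Alternatives were median centring, the Cy5 channel alone, other filters and offsets, flagged spots kept, the authors' deposited values, the methods' t-test, blocks for slide and replicate number, and replicates or arrays left out. Probe sequences and genome positions were not used here.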

Additional observations from a re-analysis of the deposited data

How the results depend on the processing

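No called change of the 5 probes turned its direction under any alternative. From 2 to 5 dpf 3 probes were called, 2 with median centring, on the Cy5 channel alone, with 50 added to both signals, with the slides as a fixed block, without replicate 2 and without replicate 2 of 2 dpf, and the methods' t-test called 1 at its threshold and 1 after adjustment. From 10 to 15 dpf 2 were called, and 1 with median centring, no filter on low signals, the slides as a fixed block, slides 1 to 6 against 7 to 14 as a block (chosen after seeing the data), limma on the 6 arrays alone and the methods' t-test, 0 on the Cy5 channel alone and with the adjusted t-test, 1 without each replicate number in turn, and 1 to 3 with single arrays left out. From 2 to 10 dpf 4 were called and the t-test called 2 (2 after adjustment), and from 15 to 89 dpf 1 and the t-test 0 (0 after adjustment). In the F test from 15 dpf on, 1 was called, 3 with 50 added to both signals and 0 to 2 without a replicate number. The p for the Foxc1 pair of 0.00303 became 0.128 from 10 dpf on, 0.279 without 5 and 10 dpf (chosen after seeing the data) and 0.0184 to 0.119 without a replicate number, and that for PCDH18 became 0.210 without 5 and 10 dpf. The cause of these moves was not tested. The replicate block left the counts at 3, 2, 4, 3 and 1 from 2 to 5, 10 to 15, 2 to 10, 10 to 89 and 15 to 89 dpf and changed no call. The labels tie no litter, batch or day to a replicate number, and the deviations of same-numbered arrays correlated at -0.273 to 0.383 (median 0.024). As a hint from the data, not the design, 37 of 51 arrays correlated best, on average, with their own number. Over all probes, median centring called 6735 higher and 1414 lower from 2 to 5 dpf (4177 and 4150 with loess), 8628 and 2473 from 2 to 10 dpf (5534 and 5049), 1230 and 1759 from 10 to 15 dpf (1926 and 546) and 3979 and 6224 from 10 to 89 dpf (4958 and 4072), and it moved the median of all probes to 0.43, 0.69, -0.25 and -0.41 there. Aquantile scaling leaves log ratios as they are by construction, so it gave no further changes of log ratios. It entered only the normalized Cy5 levels behind the bounds. Signals under 500 at 2 and 5 dpf limit every change that involves these time points.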
